A study of Mus musculus with 16 samples.

Results

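Myc and its paralogues Mycn and Mycl encode transcription factors that bind DNA as partners of MAX and drive growth, ribosome production and cell division. In mice Myc lies alone in a gene desert on chromosome 15, where distant enhancers, many of them active in only some tissues, contact its promoter, and the long noncoding RNA gene Pvt1 lies directly downstream. In epithelial cells SMAD4, the shared mediator of TGF-beta signals, is known as a repressor of Myc. Open chromatin was examined here at 235 of the 136630 nuclear peaks of an assay for transposase-accessible chromatin. They were all peaks of the table in the gene desert that surrounds Myc on mm10, from the first at chr15:61007888 to the end of the last at 63558920 (225 peaks, the Myc domain), and the peaks whose nearest protein-coding start site, within 100 kb, was that of Mycn (5 peaks) or Mycl (5 peaks). The rule used positions only and no measured value. In the Myc domain 123 peaks lay in introns, 90 between genes, 7 within 1000 bp of a start site and 5 in other exons.

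The 16 libraries came from sorted mKate2-positive pancreatic tumour cells. These cells carry Ptf1a-Cre, which is active in the embryonic pancreas, a Rosa26 allele that expresses rtTA3 and mKate2 after recombination, and a doxycycline-inducible short hairpin against Smad4 in the Col1a1 locus, linked to GFP. Cells from primary tumour lines were transplanted into young adult female Foxn1nu nude mice, which lack T cells, on doxycycline chow: into the pancreas (Panc), into the spleen, which was then removed, to seed the liver (Liv), or into the tail vein to seed the lungs (Lung). In the OFF groups doxycycline, and with it the Smad4 hairpin, was kept on, and in the ON groups doxycycline was withdrawn at 4 weeks (Panc), 5 weeks (Liv) or 6 weeks (Lung) and Smad4 was restored for 14 days per the labels, though the lung columns of the table name day 15. Panc_OFF, Panc_ON, Lung_OFF and Lung_ON had 3 mice each, and Liv_OFF and Liv_ON had 2 each. Organ cannot be told apart from injection route and growth time, and the sources used here do not say which tumour line went into which mouse. Each library was made from 60000 sorted cells and held 22.5 to 37.5 M reads in nuclear peaks. A normalised count is the number of reads in a peak divided by the size factor of its library, and a peak was called different when limma gave a log2 fold change of 0.58 or more in either direction with a Benjamini-Hochberg adjusted p, over all nuclear peaks, of 0.1 or less. Distances are from the first Myc start site to the centre of a peak on mm10, negative upstream.

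The sequences of 10 distal peaks that carry the differences described here follow as the central 200 bases on the plus strand of mm10. Capitals mark matches on either strand to TGANTCA (AP-1), CCNCNCCC (KLF), TGTTTAC (FOX) or CATTCC (TEAD). The first 3 were most open in liver metastases, the next 3 were low there, the next 2 and the peak near Mycn were open mainly in the pancreas, and the peak at 498.8 kb was higher in the pancreas after restoration. A match is only a string of letters, and a window without capitals holds none of these strings.
Peak at -365.9 kb, window chr15:61619426-61619625: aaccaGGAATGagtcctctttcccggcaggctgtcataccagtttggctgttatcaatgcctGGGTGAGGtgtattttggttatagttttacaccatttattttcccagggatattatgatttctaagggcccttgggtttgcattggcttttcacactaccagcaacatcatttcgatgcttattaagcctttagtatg
Peak at -71.7 kb, window chr15:61913581-61913780: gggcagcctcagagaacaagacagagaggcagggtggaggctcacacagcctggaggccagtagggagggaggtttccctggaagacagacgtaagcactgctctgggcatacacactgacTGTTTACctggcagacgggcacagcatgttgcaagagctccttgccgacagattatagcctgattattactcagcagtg
Peak at -478.8 kb, window chr15:61506516-61506715: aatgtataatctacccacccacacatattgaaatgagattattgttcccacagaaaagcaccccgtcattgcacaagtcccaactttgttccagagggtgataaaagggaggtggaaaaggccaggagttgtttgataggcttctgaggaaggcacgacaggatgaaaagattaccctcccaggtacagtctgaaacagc
Peak at 13.7 kb, window chr15:61999000-61999199: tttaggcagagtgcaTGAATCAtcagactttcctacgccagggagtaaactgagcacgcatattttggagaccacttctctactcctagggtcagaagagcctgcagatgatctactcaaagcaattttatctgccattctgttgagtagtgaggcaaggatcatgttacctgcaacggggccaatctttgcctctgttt
Peak at 149.5 kb, window chr15:62134744-62134943: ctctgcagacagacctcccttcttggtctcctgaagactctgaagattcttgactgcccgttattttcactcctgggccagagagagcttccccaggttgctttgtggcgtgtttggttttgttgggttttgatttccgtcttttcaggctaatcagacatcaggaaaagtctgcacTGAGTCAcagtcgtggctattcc
Peak at 237.5 kb, window chr15:62222808-62223007: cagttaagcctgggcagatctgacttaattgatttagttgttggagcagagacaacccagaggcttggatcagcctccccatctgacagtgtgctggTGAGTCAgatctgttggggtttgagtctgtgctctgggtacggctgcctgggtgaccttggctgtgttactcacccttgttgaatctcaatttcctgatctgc
Peak at 483.0 kb, window chr15:62468279-62468478: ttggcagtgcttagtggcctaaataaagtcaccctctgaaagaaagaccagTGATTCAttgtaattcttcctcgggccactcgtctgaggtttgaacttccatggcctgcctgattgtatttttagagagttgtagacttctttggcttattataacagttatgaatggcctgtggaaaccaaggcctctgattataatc
Peak at 1568.4 kb, window chr15:63553654-63553853: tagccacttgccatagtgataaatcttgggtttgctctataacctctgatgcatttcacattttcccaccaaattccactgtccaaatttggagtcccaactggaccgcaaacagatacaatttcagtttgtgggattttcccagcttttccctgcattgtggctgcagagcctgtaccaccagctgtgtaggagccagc
Peak at -31.0 kb of the Mycn start, window chr12:12972824-12973023: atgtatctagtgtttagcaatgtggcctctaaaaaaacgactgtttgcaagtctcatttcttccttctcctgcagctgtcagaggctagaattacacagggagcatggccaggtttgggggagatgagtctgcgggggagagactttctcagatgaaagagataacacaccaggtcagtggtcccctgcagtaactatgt
Peak at 498.8 kb, window chr15:62484089-62484288: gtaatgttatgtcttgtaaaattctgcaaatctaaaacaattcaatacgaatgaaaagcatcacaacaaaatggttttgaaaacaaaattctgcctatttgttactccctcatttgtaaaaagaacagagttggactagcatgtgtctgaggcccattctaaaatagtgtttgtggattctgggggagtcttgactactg

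The Myc promoter itself was open in every group at a similar level. Its peak (chr15:61983044-61989457) spans the start sites and most of the gene, and was the highest of all 235 peaks. Its normalised counts were 4309, 4133 and 4189.5 in Panc_OFF, 5214 and 4803 in Liv_OFF and 3641, 3825 and 3511 in Lung_OFF. All liver values lay above all lung values, with the pancreas between. The difference stayed under the fold threshold between liver and lungs (log2 fold change of 0.45, SE 0.09, adjusted p = 0.0013 by limma), between liver and pancreas (log2 fold change of 0.25, SE 0.09, adjusted p = 0.032 by limma) and between lungs and pancreas (log2 fold change of -0.20, SE 0.08, adjusted p = 0.127 by limma). The excess of the liver over the pancreas turned to -0.21 under quantile normalisation and to -0.000167 after correction for GC content, and the excess over the lungs shrank to 0.03 and 0.17. The median over the 14785 start-site peaks of protein-coding genes was 0.39 between liver and lungs.

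Restoring Smad4 left the promoter uncalled in all 3 organs. With Smad4 restored the counts were 5263, 4557 and 3986 in Panc_ON, 3906 and 4501 in Liv_ON and 3456, 3808 and 3587 in Lung_ON. Both liver values lay below both values with Smad4 off (log2 fold change of -0.26, SE 0.10, adjusted p = 0.33 by limma), and the groups overlapped in the pancreas (log2 fold change of 0.12, SE 0.08, adjusted p = 0.499 by limma) and the lungs (log2 fold change of -0.02, SE 0.08, adjusted p = 0.991 by limma). The Pvt1 start-site peak, the promoter of the neighbouring noncoding gene, ranged only from 589 to 757 over the 16 libraries.

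**Figure D1:**
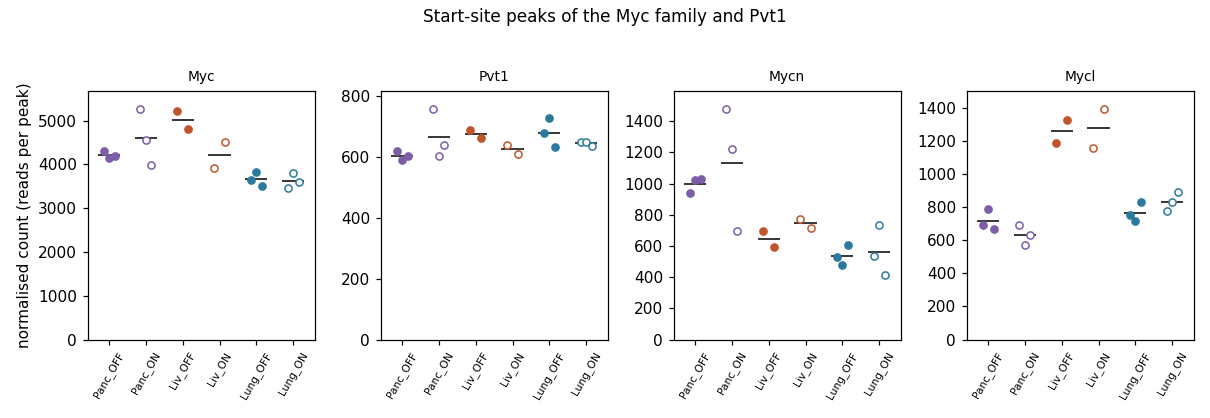
Normalised count (linear axis from 0) of the start-site peaks of Myc, Pvt1, Mycn and Mycl in each of the 16 libraries, by group; filled points have Smad4 off, open points have it restored, and bars are group means. Myc was not called between organs. Among the organs with Smad4 off, Mycn was highest in the pancreas. Mycl was highest in the liver.

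Around the promoter, many distal peaks differed between organs. Between Liv_OFF and Lung_OFF, 119 of the 225 peaks of the Myc domain were called (52.9%), against 49.7% of all nuclear peaks. Between Liv_OFF and Panc_OFF 155 were called (68.9%), against 58.5% of all peaks, and between Lung_OFF and Panc_OFF 40 were called (17.8%), against 17.3%. These comparisons share samples in pairs. The shares over all peaks include start-site peaks, so whether the domain differs from other distal peaks was not tested. With Smad4 restored, 101 were called between liver and lungs (44.9%, against 35.8% of all peaks), 162 between liver and pancreas (72.0%, against 59.4%) and 59 between lungs and pancreas (26.2%, against 27.8%). Of the 119 calls between liver and lungs with Smad4 off, 84 were called again in the same direction with Smad4 restored (70.6% of the first list and 83.2% of the second), in other mice. Over all nuclear peaks these shares were 61.8% and 85.8%.

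In the liver, calls leaned to higher values upstream of Myc and to lower values across Pvt1. In the 79 peaks of the upstream desert, 29 were called higher in Liv_OFF than in Lung_OFF and 17 lower. In the 69 peaks from the end of Myc to the end of Pvt1, 5 were higher and 29 lower, and in the 76 peaks of the desert beyond Pvt1, 12 were higher and 27 lower. Over all nuclear peaks, 22.9% were called higher and 26.8% lower. The median log2 fold change was 0.38 upstream, -0.46 from Myc to the end of Pvt1 and -0.50 beyond, against 0.00 over all peaks. The same order was seen in the ON mice, where 27 upstream peaks were higher and 8 lower, and 4 were higher and 26 lower across Pvt1, against 17.6% higher and 18.2% lower over all peaks. Correction for GC content kept the order of the first 2 segments, with 39 higher and 7 lower upstream and 8 higher and 26 lower across Pvt1, but left 20 higher and 19 lower beyond Pvt1. Over the whole domain it turned the split from 46 higher and 73 lower to 67 and 52, and quantile normalisation gave 51 and 56.

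Against the pancreas the order was like it, with 39 upstream peaks higher in Liv_OFF and 20 lower, 11 higher and 30 lower across Pvt1, and 16 higher and 39 lower beyond. Over all nuclear peaks 26.2% were called higher and 32.3% lower in this comparison. Upstream, 28 peaks were called higher in Liv_OFF than in both other organs and 13 lower than in both. Across Pvt1 these numbers were 5 and 25, and beyond it 11 and 23, where 19.8% of all nuclear peaks were higher in the liver than in both and 20.8% were lower. Neighbouring regions of chromosome 15 outside the Myc domain also leaned low in the liver: between 64 and 66 Mb the median deviation from the mean over all libraries was -0.72 and -0.67 on the log2 scale in the Liv_OFF libraries, and between 66 and 68 Mb it was -0.97 and -0.99. Between the end of the domain and 64 Mb it was 0.64 and 1.05. On the upstream side it was -0.66 and -0.61 between 60 Mb and the start of the domain, beside the upstream desert, and -0.19 and -0.17 between 58 and 60 Mb. The low level across Pvt1 and beyond was not set apart from these regions by any test, and no test of the difference between segments was made.

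**Figure D2:**
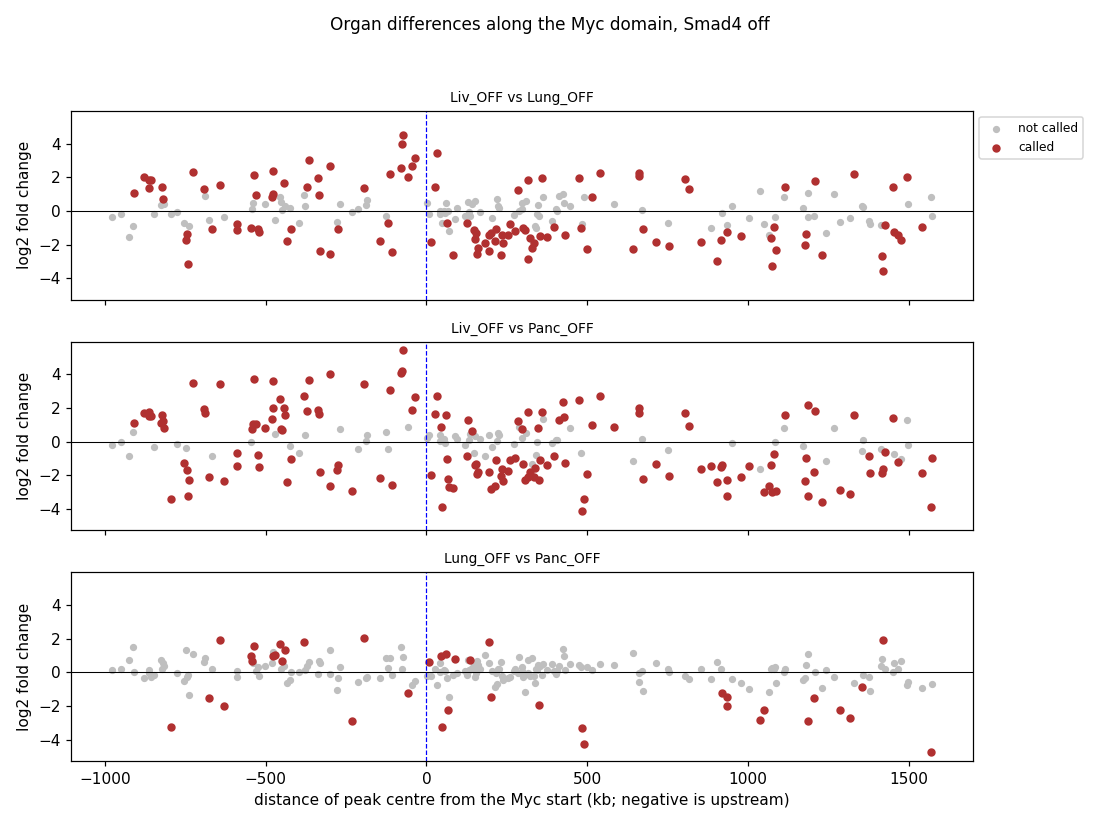
Log2 fold change (vertical axes) of the 225 peaks of the Myc domain against the distance of each peak from the Myc start in kb, for the 3 comparisons of organs with Smad4 off; red points were called and grey points were not, and the dashed line marks the Myc start. In the 2 liver panels called peaks upstream were mostly higher in the liver, and called peaks downstream mostly lower.

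Summed over segments, the upstream desert was raised in every liver library. Its summed normalised count was 11959 and 13074 in Liv_OFF and 11360.0 and 14230.0 in Liv_ON. It was 6565 to 9211 in the 6 pancreas libraries and 7432 to 9230.0 in the 6 lung libraries, so that no pancreas or lung library reached the lowest liver library. Across Pvt1 the order was the other way: 12529 to 13333 in the liver, 14226 to 17615 in the pancreas and 14791 to 16773 in the lungs. Beyond Pvt1 the liver libraries gave 6394 to 7621, the pancreas 7561 to 9152 and the lungs 6870.0 to 9309, with overlap between organs. No test was made of these sums.

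**Figure D3:**
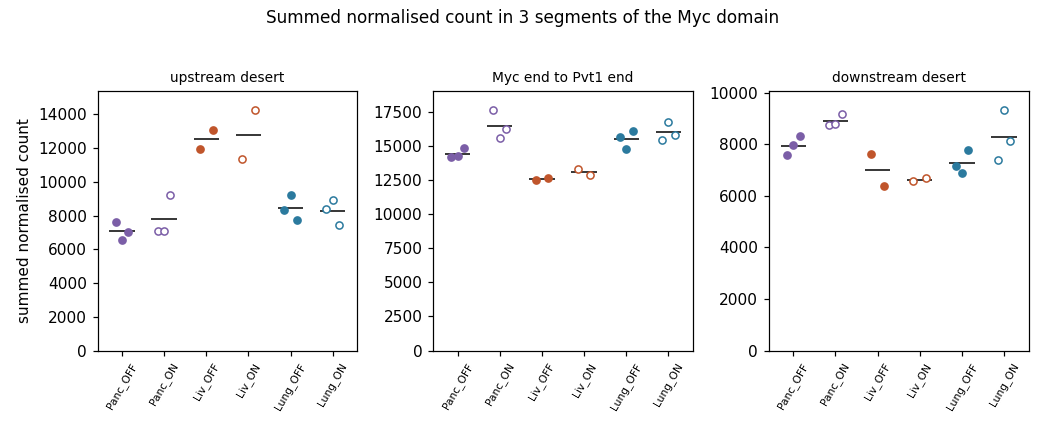
Summed normalised count (linear axis from 0) of the peaks in 3 segments of the Myc domain in each of the 16 libraries, by group; filled points have Smad4 off, open points have it restored, and bars are group means. The 4 liver libraries were above all others upstream of Myc and below all others between Myc and the end of Pvt1.

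The liver-high peaks upstream ranged from sites with few reads elsewhere to sites that were strong in all organs. The peak at -365.9 kb (chr15:61618431-61620620, in an intron of the noncoding gene D030024E09Rik) had normalised counts of 654 and 900.0 in Liv_OFF, 57.1, 153 and 87.0 in Lung_OFF and 63.2, 67.9 and 46.3 in Panc_OFF. Every liver library was above all others, both against the lungs (log2 fold change of 3.06, SE 0.34, adjusted p = 2.3e-05 by limma) and against the pancreas (log2 fold change of 3.69, SE 0.34, adjusted p = 4.9e-06 by limma). Lack of overlap between the compared groups was part of the rule that picked this and most other distal peaks named here. With Smad4 restored the liver counts were 694 and 765, those of the lungs 74.1, 81.5 and 88.6, and those of the pancreas 36.4, 53.2 and 33.7. The intergenic peak at -71.7 kb (chr15:61913317-61914044), which holds the FOX string shown above, had the widest range between organs of all 235 peaks. It gave 157 and 327 in Liv_OFF and 285 and 291 in Liv_ON, and at most 21.7 in the other 12 libraries. It was called in both Smad4 states against both organs, with a log2 fold change of 5.44, SE 0.79, adjusted p = 6.4e-05 by limma for Liv_OFF against Panc_OFF.

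Some of the upstream peaks were graded over all 3 organs. At -478.8 kb (chr15:61506025-61507205) the counts were 217, 186 and 212 in Panc_OFF, 293, 529 and 403 in Lung_OFF and 726 and 914 in Liv_OFF. No library of one organ overlapped with another, and all 3 organ comparisons were called (log2 fold change of 0.95, SE 0.21, adjusted p = 0.00886 by limma for lungs against pancreas). At -534.9 kb (chr15:61450157-61450783) they were 23.9, 7.15 and 12 in Panc_OFF, 26.7, 70.6 and 35.3 in Lung_OFF and 222 and 146 in Liv_OFF, and the lungs were again called above the pancreas (log2 fold change of 1.59, SE 0.40, adjusted p = 0.0165 by limma). The peaks at -858.1 kb and -45.8 kb separated the liver from both other organs. At -858.1 kb the counts were 348 and 394 in Liv_OFF against 66.3, 142 and 114 in Lung_OFF and 127, 106 and 145 in Panc_OFF. At -45.8 kb they were 176 and 117 in Liv_OFF, 16.6, 34.8 and 18.1 in Lung_OFF and 32.5, 42.9 and 38.9 in Panc_OFF. The strongest upstream peak, at -452.4 kb, was open in all organs (897 to 1439 in pancreas and lungs) and higher in the liver (1594 to 2099).

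Of the 73 peaks called lower in Liv_OFF than in Lung_OFF, 29 lay between Myc and the end of Pvt1, and the rest upstream or beyond. The peak at 13.7 kb (chr15:61998726-61999473, intergenic) had counts of 56.8 and 73.8 in Liv_OFF, 252, 216 and 222 in Lung_OFF and 251, 251 and 286 in Panc_OFF. Both Liv_OFF libraries were below every other library (log2 fold change of -1.81, SE 0.19, adjusted p = 1.9e-05 by limma). Within introns of Pvt1, the peak at 149.5 kb had 106 and 75.2 in Liv_OFF against 285, 256 and 296 in Lung_OFF and 222, 257 and 228 in Panc_OFF, and the peak at 237.5 kb had 51.8 and 55.7 in Liv_OFF against 250.4, 139 and 244 in Lung_OFF and 253, 278 and 297 in Panc_OFF. All 3 hold an AP-1 string in the sequences shown above. The peak at 301.6 kb (chr15:62286069-62287877), one of the 5 strongest members, had 1061 to 1649.9 in the pancreas and 431 to 678 in the liver.

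Liver-low peaks were also found farther away. At -330.2 kb, in the same noncoding gene as the liver-high peak at -365.9 kb, the counts were 33.3 and 39.0 in Liv_OFF, 250.4, 124 and 222 in Lung_OFF and 135, 105 and 155 in Panc_OFF (log2 fold change of -2.37, SE 0.32, adjusted p = 7.2e-05 by limma). At 1230.2 kb, in an intron of the noncoding gene Gm41335, they were 11.1 and 5.57 in Liv_OFF, 88.4, 39.1 and 45.7 in Lung_OFF and 108, 90.2 and 114 in Panc_OFF. At 1081.3 kb, over an exon of the noncoding gene Gm30159, the counts with Smad4 restored were 379 and 281 in Liv_ON and 728, 895 and 833 in Lung_ON, and the difference was called. By contrast, the peaks at 343.3 kb and 94.1 kb, among the strongest 5 members, spanned 1701 to 2223 and 1353 to 1817 over all libraries.

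Matches to AP-1, the string bound by FOS and JUN factors, were more frequent in liver-low than in liver-high peaks. Of the 73 peaks of the Myc domain that were lower in Liv_OFF than in Lung_OFF, 37 held TGANTCA on either strand in their central 200 bases (50.7%), and of the 46 higher peaks 7 did (15.2%). Over all nuclear peaks called lower the share was 44.9% and over those called higher 15.6%, close to those of the domain. The 95% Wilson intervals were 39.5% to 61.8% and 7.57% to 28.2%, and cover counting error only. FOX strings were in 3 of the 46 higher and 1 of the 73 lower peaks (6.52% and 1.37%, against 5.15% and 4.64% of all peaks called higher and lower). TEAD strings, whose factors act with YAP, were in 9 and 13 (19.6% and 17.8%, against 15.1% and 14.9%). The E-box CACGTG, to which MYC and MAX bind, was in 4 of the 225 central windows (1.78%, against 2.88% of all peaks). KLF strings (CCNCNCCC) were in 21 (9.33%, against 20.9%), among them 3 of the 46 higher peaks (6.52%, against 25.0% of all peaks called higher) and 7 of the 73 lower peaks (9.59%, against 15.3%). The KLF string is rich in C or G, and all nuclear peaks include 14785 start-site peaks of protein-coding genes. The shares over all peaks were not matched for GC content or for distance from start sites. A lack of KLF strings in the domain was thus not tested. The palindromic SMAD string GTCTAGAC was in 1 window.

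Some peaks were open mainly in the pancreas. In the Myc domain 19 of the 225 peaks were called lower in both Liv_OFF and Lung_OFF than in Panc_OFF, 11 of them beyond Pvt1. This share was slightly below the 9.27% of all nuclear peaks that were called so, and is thus not particular to the domain. The peak at 1568.4 kb (chr15:63553307-63554200, in an intron of Gm41335) had counts of 84.5, 95.6 and 127 in Panc_OFF, 6.17 and 5.57 in Liv_OFF and 2.76, 4.35 and 1.72 in Lung_OFF. Every lung library was below every pancreas library (log2 fold change of -4.75, SE 0.68, adjusted p = 0.000665 by limma). At 483.0 kb (chr15:62468126-62468630, intergenic) the counts were 66.6, 119 and 112 in Panc_OFF, 7.41 and 2.79 in Liv_OFF and 12, 4.35 and 12.1 in Lung_OFF. At 934.0 kb they were 143, 152 and 169 in Panc_OFF, 45.7 and 20.9 in Liv_OFF and 61.7, 51.1 and 55.1 in Lung_OFF.

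Fibroblast markers, like these peaks, were highest in the pancreas, in cells that had been sorted for mKate2. Whether they vary together over libraries was not tested. The start-site peaks of Dcn, Pdgfra, Col3a1 and Lum, all 4 genes of the fibroblast list, summed to 1450.1, 1459.7 and 1919 in Panc_OFF and 2501, 1807 and 1314 in Panc_ON, and to 565 to 825 in liver and 584 to 1195 in lung libraries. All 4 were called lower in Liv_OFF than in Panc_OFF, and 3 of 4 lower in Lung_OFF. The third Panc_ON library was the lowest in the pancreas at the peak at 1568.4 kb (204, 175 and 38.3 in the 3 libraries). It was also the lowest at the peak at -31.0 kb of Mycn (303, 225 and 59.0) and in the fibroblast sum (2501, 1807 and 1314). The part of fibroblast DNA in these peaks was not tested. In a bulk library fewer cells of a type and less open chromatin per cell cannot be told apart. The Smad4 start-site peak gave 683 to 1119, which checks nothing of the knockdown, since the hairpin acts on the transcript.

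Of the 6 hepatocyte genes, Alb, Apoa1, Fga and Cyp2e1 had no peak within 1000 bp of a start site, and the peaks of Ttr and Apob summed to 719 to 1172 in the liver, 233 to 441 in the pancreas and 383 to 608 in the lungs. Both were called higher in Liv_OFF. Their part in the liver-high peaks was not tested. Of the 8 genes of the tumour epithelium list, all had a peak. In Liv_OFF 7 were called higher than in Lung_OFF, against 21.5% of the start-site peaks of protein-coding genes, and 7 higher than in Panc_OFF. Their summed peaks were 42251 to 57223 in liver, 18326 to 27446 in pancreas and 25090 to 37498 in lung libraries. The summed peaks of 2 leukocyte genes were 627 to 946 in liver, 628 to 849 in lung and 329 to 531 in pancreas libraries, and those of 4 endothelial genes 74.1 to 112, 165 to 856 and 219 to 259. The highest of these was the first Lung_OFF library alone, and the other 5 lung libraries had 165 to 269.5. Of 5 acinar genes only Cela1 had a start-site peak (288 to 490.0 in the liver and 54.2 to 164 elsewhere), and of 5 lung epithelial genes only Ager did (14.2 to 59.9 over all libraries).

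**Figure D4:**
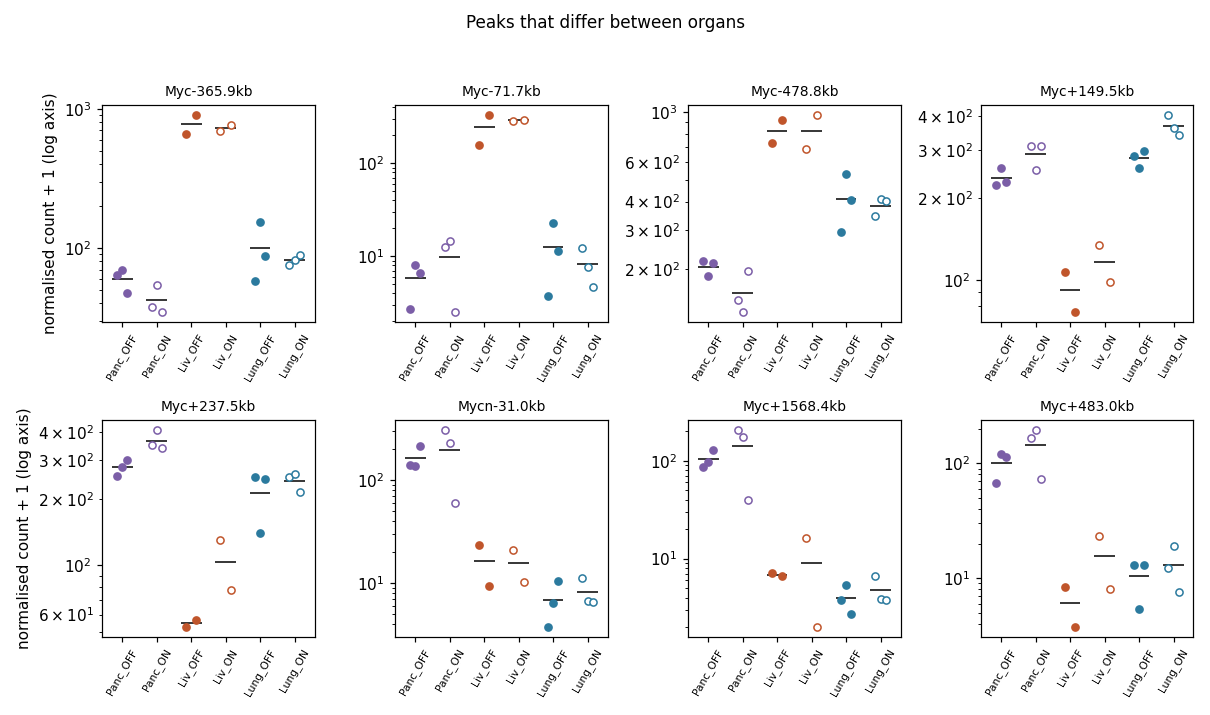
Normalised count plus 1 (log axes, each with its own range) of 8 peaks in each of the 16 libraries, by group; names give the distance from the Myc or Mycn start, filled points have Smad4 off, open points have it restored, and bars are group means. The first 3 peaks were highest in the liver, the next 2 lowest there, and the last 3 were open mainly in the pancreas.

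Differences between lungs and pancreas were fewer. Against the pancreas, 18 of the 225 peaks were called higher in Lung_OFF and 22 lower, against 6.59% and 10.7% of all nuclear peaks. The peak at 193.0 kb, in an intron of Pvt1, had 416, 251 and 389 in Lung_OFF, 149, 66.1 and 89.8 in Panc_OFF and 131 and 127 in Liv_OFF (log2 fold change of 1.83, SE 0.41, adjusted p = 0.00853 by limma). The peak at 6.6 kb, just past the end of Myc, differed less: it had 747, 843 and 752 in Lung_OFF and 565, 479.7 and 500.1 in Panc_OFF (log2 fold change of 0.60, SE 0.14, adjusted p = 0.0105 by limma). With Smad4 restored, the peak at 166.5 kb had 372, 464 and 408 in Lung_ON against 218, 173 and 220.0 in Panc_ON (log2 fold change of 1.02, SE 0.15, adjusted p = 0.000581 by limma).

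Restoration of Smad4 moved few peaks. In the pancreas 6 of the 225 peaks were called, 4 higher and 2 lower, against 3.42% of all nuclear peaks (0.364% higher and 3.06% lower). The peak at 498.8 kb rose from 116, 176 and 111 to 232, 301 and 478 (log2 fold change of 1.29, SE 0.35, adjusted p = 0.0751 by limma). The peak at 1415.6 kb rose from 92.2, 104 and 133 to 240.0, 205 and 484 (log2 fold change of 1.40, SE 0.38, adjusted p = 0.0751 by limma). Within Pvt1 the peak at 221.3 kb fell from 102, 89.3 and 83.3 to 40.0, 49.5 and 36.8 (log2 fold change of -1.11, SE 0.29, adjusted p = 0.0637 by limma), and the peak at 272.9 kb fell from 183, 199 and 189 to 107, 124 and 116 (log2 fold change of -0.72, SE 0.21, adjusted p = 0.0937 by limma). The other 2 calls, at -748.3 kb and 480.3 kb, were higher after restoration. With the lungs blocked by replicate number, 15 peaks were called in place of 6. Without any one Panc_OFF library, or without the second Panc_ON library, none was.

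In the liver 1 peak was called, against 0.55% of all peaks: the peak at 13.7 kb, low in Liv_OFF, went from 56.8 and 73.8 to 170.0 and 127 (log2 fold change of 1.17, SE 0.21, adjusted p = 0.0452 by limma). It remained below every pancreas and lung library. With 2 mice a group this call was lost without the first Liv_OFF or the first Liv_ON library, and when only the liver samples were fitted. With the lungs blocked by replicate number, 2 peaks were called. In the lungs limma and edgeR called none and DESeq2 called 3, against 0.00366% of all peaks by limma. By limma 12 of the 225 had an unadjusted p under 0.05, where a share of about 0.05 would with no difference at all.

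Averaged over the 3 organs, 16 peaks of the Myc domain were called, 11 higher and 5 lower, against 6.62% of all peaks (3.61% higher and 3% lower). The peak at 13.7 kb was among them (log2 fold change of 0.58, SE 0.11, adjusted p = 0.00973 by limma), as were those at 498.8 kb and 221.3 kb. Without 1 library at a time the average at 13.7 kb ranged from 0.51 to 0.65, on both sides of the fold threshold. By organ, limma called the peak at 13.7 kb only in the liver. The weak peak at 804.3 kb fell (log2 fold change of -1.21, SE 0.30, adjusted p = 0.0289 by limma), from 60.5 and 34.8 in Liv_OFF to 8.15 and 11.2 in Liv_ON. In the other organs it had few reads in both states, with means of 13.7 in Panc_OFF, 7.35 in Panc_ON, 11.9 in Lung_OFF and 7.95 in Lung_ON. Whether restoration acted differently between organs was tested by interaction terms in the fit over all nuclear peaks. Neither limma nor edgeR called any of the 235 members, and DESeq2 called 3 between lungs and pancreas. By limma 12 (liver minus lungs), 12 (liver minus pancreas) and 24 (lungs minus pancreas) had an unadjusted p under 0.05. A share of about 0.05 of peaks would fall under this limit with no difference at all. With the lungs blocked by replicate number 2 were called, and without the second Lung_OFF library 9 were.

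**Figure D5:**
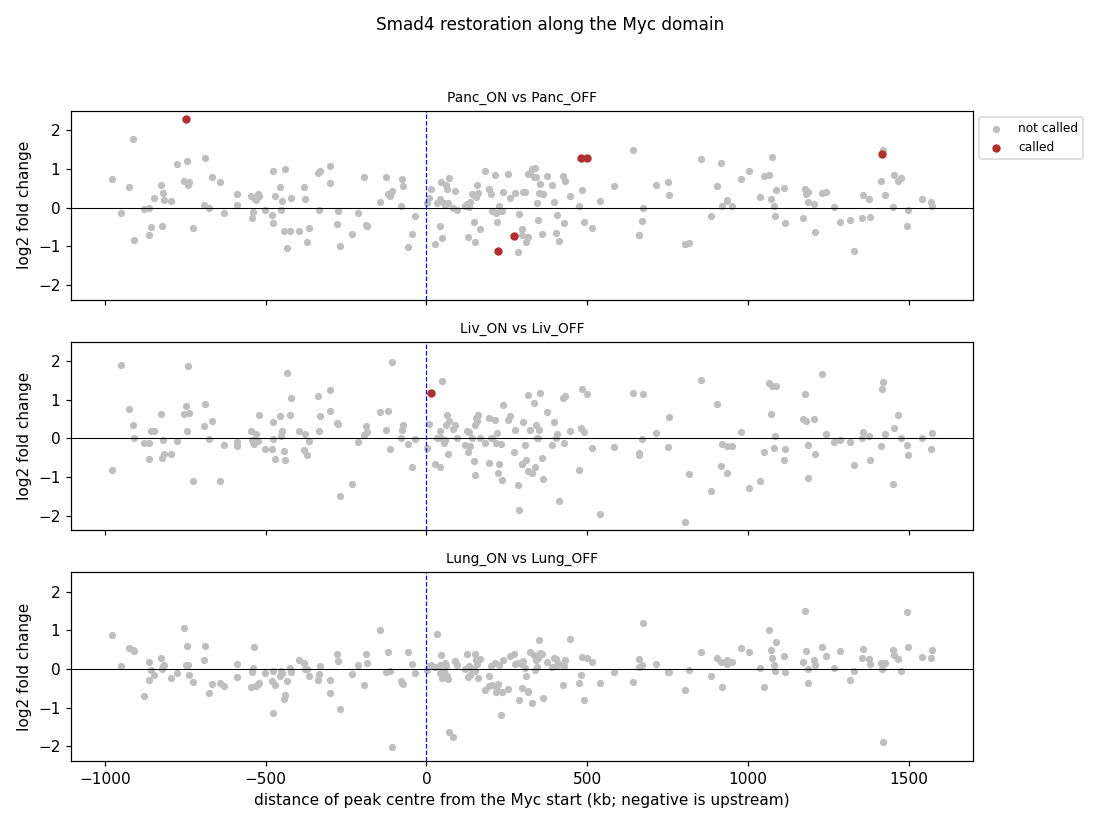
Log2 fold change (vertical axes) after Smad4 restoration of the 225 peaks of the Myc domain in the pancreas, liver and lungs against the distance from the Myc start in kb; red points were called and grey points were not, and the dashed line marks the Myc start. There were 6 called peaks in the pancreas, 1 in the liver and none by limma in the lungs, where DESeq2 called 3.

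Among the organs with Smad4 off, Mycn, which is known from neural and embryonic tissues, was most open in the pancreas. Its start-site peak (chr12:12938908-12942988) had 937, 1023 and 1029.8 in Panc_OFF, 695 and 595 in Liv_OFF and 527, 480.3 and 603 in Lung_OFF. Both metastatic groups lay below the pancreas and were called (log2 fold change of -0.63, SE 0.25, adjusted p = 0.0398 by limma for the liver and log2 fold change of -0.90, SE 0.22, adjusted p = 0.0159 by limma for the lungs). With each library centred on its chromosome the liver value was -0.57 and no longer passed. With Smad4 restored, the start-site peak was called lower than in the pancreas in the lungs but not in the liver. Summed over the 5 peaks near Mycn, the counts were then 2039, 1691 and 858 in Panc_ON, 896 and 785 in Liv_ON and 599, 817 and 462 in Lung_ON. The third Panc_ON library thus fell below the first Liv_ON library. Of the 5 peaks near Mycn, 3 were called lower in Liv_OFF and 2 in Lung_OFF. A distal peak upstream, at -31.0 kb (chr12:12972329-12973518), went further, with 137, 136 and 214 in Panc_OFF, 22.2 and 8.36 in Liv_OFF and 2.76, 5.43 and 9.48 in Lung_OFF. It too was called in both (log2 fold change of -4.66, SE 0.56, adjusted p = 0.000329 by limma for the lungs). The peak at -41.1 kb had 78.6, 71.5 and 135 in Panc_OFF, 18.5 and 12.5 in Liv_OFF and 67.2, 12 and 59.5 in Lung_OFF, where 1 lung library fell to the liver level. The remaining 2 peaks near Mycn, downstream of it, were at most 74.1 in any library.

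At its start site Mycl, which is known from lung and neuroendocrine tumours, was instead most open in the liver. Its start-site peak (chr4:122995257-122997545) had 1186 and 1326 in Liv_OFF, 750.2, 713 and 829 in Lung_OFF and 690.0, 791 and 665 in Panc_OFF. With Smad4 restored it had 1159 and 1391 in Liv_ON, 775, 832 and 888 in Lung_ON and 689, 571 and 632 in Panc_ON. The liver was above both other organs in each state (log2 fold change of 0.72, SE 0.13, adjusted p = 0.000443 by limma against the lungs and log2 fold change of 0.81, SE 0.13, adjusted p = 0.000107 by limma against the pancreas). These calls were lost after correction for GC content (0.36 and 0.51) and under quantile normalisation (0.39 and 0.44), with the liver still higher. The RefSeq sequence of the 250 bases before its start on the plus strand (chr4:122995681-122995930, GRCm38) holds overlapping KLF strings, which the capitals mark.
Mycl promoter: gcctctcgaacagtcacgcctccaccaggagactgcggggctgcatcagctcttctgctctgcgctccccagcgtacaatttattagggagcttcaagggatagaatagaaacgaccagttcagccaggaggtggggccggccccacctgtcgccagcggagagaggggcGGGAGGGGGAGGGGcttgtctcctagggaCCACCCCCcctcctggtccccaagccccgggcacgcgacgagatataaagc
The peaks at -4.9 kb and -8.3 kb of the Mycl start had counts of 71.1 to 214 and 11.1 to 60.7 over all libraries. The weak peak at 9.9 kb was 19.7 to 40.6 in the liver and 2.58 to 14.9 elsewhere. Not all peaks near Mycl were higher in the liver. Of the 5, 2 were called higher and 2 lower in Liv_OFF than in Panc_OFF (26.2% and 32.3% of all nuclear peaks). Against Lung_OFF, 2 were called higher and 1 lower (22.9% and 26.8% of all nuclear peaks). Restoration called no peak near Mycn or Mycl by limma, edgeR or DESeq2 in any organ, and by limma 1 of the 10 had an unadjusted p under 0.05 in the pancreas and 0 in the liver and lungs.

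Start sites of the wider MYC network were examined between Liv_OFF and Lung_OFF, where 21.5% of the 14785 start-site peaks of protein-coding genes were called higher and 6.3% lower. Of 10 genes for MAX, its partners and their relatives, 1 was called: Mlxipl, which encodes the glucose-responsive factor ChREBP, had 1192 and 1163 in Liv_OFF, 405, 782 and 595 in Lung_OFF and 462, 409 and 444 in Panc_OFF. Of 10 known regulators of Myc, 1 was called: Lef1, which encodes a WNT-responsive factor, had 21.0 and 26.5 in Liv_OFF, 49.7, 39.1 and 58.6 in Lung_OFF and 68.3, 75.0 and 57.4 in Panc_OFF and was lower in the liver. Of 14 MYC target genes, 1 was called, the nucleolar gene Ncl, higher in the liver. The median log2 fold change between Liv_OFF and Lung_OFF was 0.48, 0.40 and 0.40 over the 3 lists, against 0.39 over the start-site peaks of protein-coding genes. Among 14295 promoter peaks of other genes, those of Rhob, Map4, Man2a1, Zfp760 and Tcf4 had the group means nearest to those of the Myc promoter, at root mean square distances of 0.025 to 0.039 on the log2 scale over the 6 groups.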

How the data were processed

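Open chromatin was measured by transposase-accessible chromatin sequencing in 16 samples, each from 1 mouse. One allele that all groups share is not reported here. As stated in the methods and labels, the authors used trimGalore for trimming, Bowtie2 for alignment to mm10 and MACS2 for peaks, merged the peaks of all samples and counted reads with featureCounts. The deposited signal values are reads per peak, divided by the authors with DESeq2 size factors. Whole reads were recovered from them (100% of values whole within 0.1). Read shifting, duplicate removal and the last filter on peaks are not given in the sources used here. The ON and OFF state of a column was read from its doxycycline label.

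From these values log2(normalised count + 1) was fitted by limma 3.58.1 in R 4.3.3 (trend, robust) with 6 group means over 136630 nuclear peaks, so fold changes of low peaks are understated. The fit was tested on simulated data. edgeR 4.0.16 and DESeq2 1.42.0 on the recovered reads, other thresholds, pseudocounts, filters, scalings, a GC correction, replicate blocks and the omission of each library were alternatives. The peaks named are the start-site peaks, for each comparison the 2 or 3 calls per direction with the lowest p and, except for the average, no overlap between groups, the 5 highest peaks and the 3 with the widest range between organs. Beyond these, the peaks at -41.1 kb of Mycn, near Mycl, and at -748.3 kb and 480.3 kb of Myc were named after their values were seen. The members, gene lists and motifs were chosen with earlier results of these data known. Replicate numbers come from the column labels. The deviations of same-numbered samples from their group means had correlations of 0.491, 0.124 and 0.214 in the lungs. They were -0.33, 0.027 and -0.33 in the pancreas and 0.083 in the liver. Samples with different numbers were not compared and the labels do not pair the mice, so whether the lung samples are pairs was not settled. The main fit treated no samples as pairs, and replicate blocks were used only as alternatives.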

Additional observations from a re-analysis of the deposited data

How the results depend on the processing

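At a fold threshold of 1 and an adjusted p of 0.05, 26 peaks of the Myc domain were called between Lung_OFF and Panc_OFF, 38 between Lung_ON and Panc_ON, 0 after restoration in the pancreas and 3 on average over organs, 13 calls were left near Mycn and Mycl and 1 at the start sites. For restoration in the pancreas, limma called 6 peaks, edgeR 7 and DESeq2 14, quantile normalisation gave 12 and a fit of only the groups compared 10. With a replicate block in every organ the count was 11, with the block in the lungs only 15, and with the block and a GC correction 10. For restoration in the liver (1 call), a pseudocount of 10 gave 2, DESeq2 3, a replicate block in every organ 0, the block in the lungs only 2, the block with a GC correction 0 and only the groups compared 0. In the lungs DESeq2 gave 3. Organ differences of restoration (0 calls) became 2 with the replicate block in the lungs only and 3 by DESeq2. The cause was not tested for any of these, and shares over all nuclear peaks were not set beside these alternative counts.

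Without 1 library at a time, the counts ranged from 86 to 129 (Liv_OFF against Lung_OFF), 128 to 159 (Liv_OFF against Panc_OFF), 26 to 48 (Lung_OFF against Panc_OFF, lowest without the third Panc_OFF library), 42 to 109 (Liv_ON against Lung_ON, lowest without the second Liv_ON library), 109 to 164 (Liv_ON against Panc_ON), 41 to 69 (Lung_ON against Panc_ON), 0 to 13 (pancreas restoration), 0 to 6 (liver restoration), 0 to 0 (lung restoration), 5 to 33 (average restoration), 18 to 25 (near Mycn and Mycl), 6 to 8 (start sites) and 0 to 9 (organ differences, highest without the second Lung_OFF library). Pancreas restoration gave 0 without any one Panc_OFF library or the second Panc_ON library, 3 without replicate 1 or replicate 3 of Panc_ON, 2 without either Liv_OFF library, 13 and 10 without the first and second Lung_OFF libraries and 1 without the second Lung_ON library. Liver restoration gave 0 without the first Liv_OFF or Liv_ON library, 6 without the second Liv_ON library and 2 without the third Panc_ON, second Liv_OFF, first Lung_OFF or second Lung_OFF library. Average restoration gave 10 without the first or second Panc_OFF or the first Lung_ON library, 7 without the first Liv_OFF, 5 and 26 without the first and second Liv_ON, and 33 and 9 without the first and second Lung_OFF libraries.

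The log2 fold change at the Myc start between Liv_OFF and Panc_OFF became -0.21 under quantile normalisation and -0.000167 with a GC correction, also with the replicate block. After restoration in the lungs it became 0.0082 under quantile normalisation and ranged from -0.055 to 0.016 without 1 library. Restoration rests on 2 or 3 mice a group, and in the liver on 2, so small differences were not detectable.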
